A study of Mus musculus with 23 samples.

Results

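The collagen genes were taken as every gene on the array with a single symbol of the form Col, number, a, number. They made up 42 of the 18193 genes measured, and where a gene had several probe sets, the one of highest average signal stood for it. The material was 23 clonal preadipocyte lines, each founded by 1 cell sorted from the stromovascular cells of fat, the cells that are not fat cells. The donor of all lines was 1 male Immortomouse, 8 weeks old, from which subcutaneous and perigonadal fat were taken. Every cell of this strain carries a temperature-sensitive large T antigen under an interferon-inducible promoter, which lets the cells divide without limit, and the cultures were held at a temperature of 33 °C in medium that contained interferon-gamma at 10 units/mL. The submitters grouped them by clustering of these expression data into Type 1 (3 lines, all from perigonadal fat, PGF), Type 2 (5 lines, 4 from subcutaneous fat, SCF, and 1 PGF), Type 3 (8 lines, 4 of each depot) and Other (7 lines, 4 SCF and 3 PGF), the lines with no numbered type. A p-value between groups therefore describes the groups, is not independent evidence that they exist, and measures the spread between clones of 1 mouse. In each line 1 array was run, and the sources used here do not say if cells had been differentiated before RNA was taken.

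Collagens are the main structural proteins of the extracellular matrix, built from chains that wind around each other into a helix. Fibrillar collagens form the tensile fibres of connective tissue, and type IV chains form the sheet-like network of basement membranes, which surround every fat cell. Type VI chains form beaded microfilaments that are abundant in adipose tissue, and fibril-associated collagens with interrupted helices (FACIT) sit on the surface of fibrils. The remaining genes encode short network-forming chains (types VIII and X), the multiplexins (types XV and XVIII), membrane-spanning collagens, and others such as the anchoring fibril collagen Col7a1.

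The stretches just upstream of the annotated starts of the 4 members that separated Type 1 from all other lines are given here, with that of Col4a5, the neighbour of Col4a6 on the X chromosome. They are from RefSeq, build GRCm38.p6, 5′ to 3′ on the strand of the gene, and overlap no annotated gene. Capitals mark 3 motifs searched on both strands. The motif TATAAA is the core of the TATA box, the motif CCAAT is the core of the CCAAT box, and the motif GGGCGG is the GC box, which reads CCGCCC on the other strand. A match to these letters is a description and not a binding site. In the 250 bases before the start, 12.4% of 32851 mouse promoters held the TATA motif, 33.8% the CCAAT motif and 32.7% the GC box. The Col8a2 stretch has 250 bases. Those of Col4a6, Col4a5, Col6a3 and Col5a1 have 231, 201, 220 and 206, shorter than the window of these shares. The positions are chr4:126286544-126286793 (plus strand) for Col8a2, chrX:141474096-141474326 (minus) for Col4a6, chrX:141475169-141475369 (plus) for Col4a5, chr1:90844002-90844221 (minus) for Col6a3 and chr2:27886175-27886380 (plus) for Col5a1.
Col8a2: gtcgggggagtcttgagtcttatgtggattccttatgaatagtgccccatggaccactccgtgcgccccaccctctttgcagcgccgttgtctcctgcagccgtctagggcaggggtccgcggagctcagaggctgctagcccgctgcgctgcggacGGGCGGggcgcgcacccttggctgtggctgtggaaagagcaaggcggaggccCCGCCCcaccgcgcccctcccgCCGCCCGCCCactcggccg
Col4a6: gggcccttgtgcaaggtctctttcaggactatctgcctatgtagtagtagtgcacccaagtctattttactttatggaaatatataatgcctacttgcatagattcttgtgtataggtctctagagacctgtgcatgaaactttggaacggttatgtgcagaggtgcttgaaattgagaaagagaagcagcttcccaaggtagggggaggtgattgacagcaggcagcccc
Col4a5: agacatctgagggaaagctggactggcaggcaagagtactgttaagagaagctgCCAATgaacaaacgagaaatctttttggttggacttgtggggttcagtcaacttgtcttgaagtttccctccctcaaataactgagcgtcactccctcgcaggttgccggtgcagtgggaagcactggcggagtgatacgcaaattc
Col6a3: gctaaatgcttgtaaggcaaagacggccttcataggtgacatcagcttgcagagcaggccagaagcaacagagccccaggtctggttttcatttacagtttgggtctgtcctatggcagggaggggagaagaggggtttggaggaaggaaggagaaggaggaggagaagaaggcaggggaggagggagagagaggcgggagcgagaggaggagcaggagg
Col5a1: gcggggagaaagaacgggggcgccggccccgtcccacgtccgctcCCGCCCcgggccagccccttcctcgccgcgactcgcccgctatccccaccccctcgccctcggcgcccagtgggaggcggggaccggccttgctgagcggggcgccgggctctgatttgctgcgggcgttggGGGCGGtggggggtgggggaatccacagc
The Col8a2 stretch held the GC box 4 times, with overlap, and the Col5a1 stretch held it 2 times. CCAAT occurred 1 time, upstream of Col4a5, and these letters did not occur in the Col4a6 and Col6a3 stretches. Bases were 70% G or C upstream of Col8a2 and 77.7% upstream of Col5a1, against 45.5% for Col4a6, 49.8% for Col4a5 and 56.4% for Col6a3. Col4a6 and Col4a5 are read in opposite directions, and 1274 bases lie between their annotated starts. A RefSeq promoter entry was matched for 33 of the 42 collagen genes.

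Signals are on the log2 scale, on which 1 unit is a doubling, and the median of the whole table was 5.13. Of the 42 collagen genes, 21 lay above that median in every line, 9 in some lines and 12 in none. The 12 low genes were Col4a3, Col4a4, Col6a4, Col6a5, Col9a2, Col11a2, Col13a1, Col17a1, Col19a1, Col22a1, Col24a1 and Col26a1, and differences among their values rest on signals near the background of the array. Above the median in every line were 7 of 11 fibrillar genes, 3 of 6 basement membrane genes, 3 of 5 microfibrillar genes and 4 of 9 FACIT genes. Both chains of type I collagen, Col3a1, Col5a1, Col5a2, Col4a1, Col4a2, Col6a1, Col6a2 and Col6a3 belong to that set. The plot of all members by line shows which of them separate the groups and which vary among lines of a group.

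**Figure D1:**
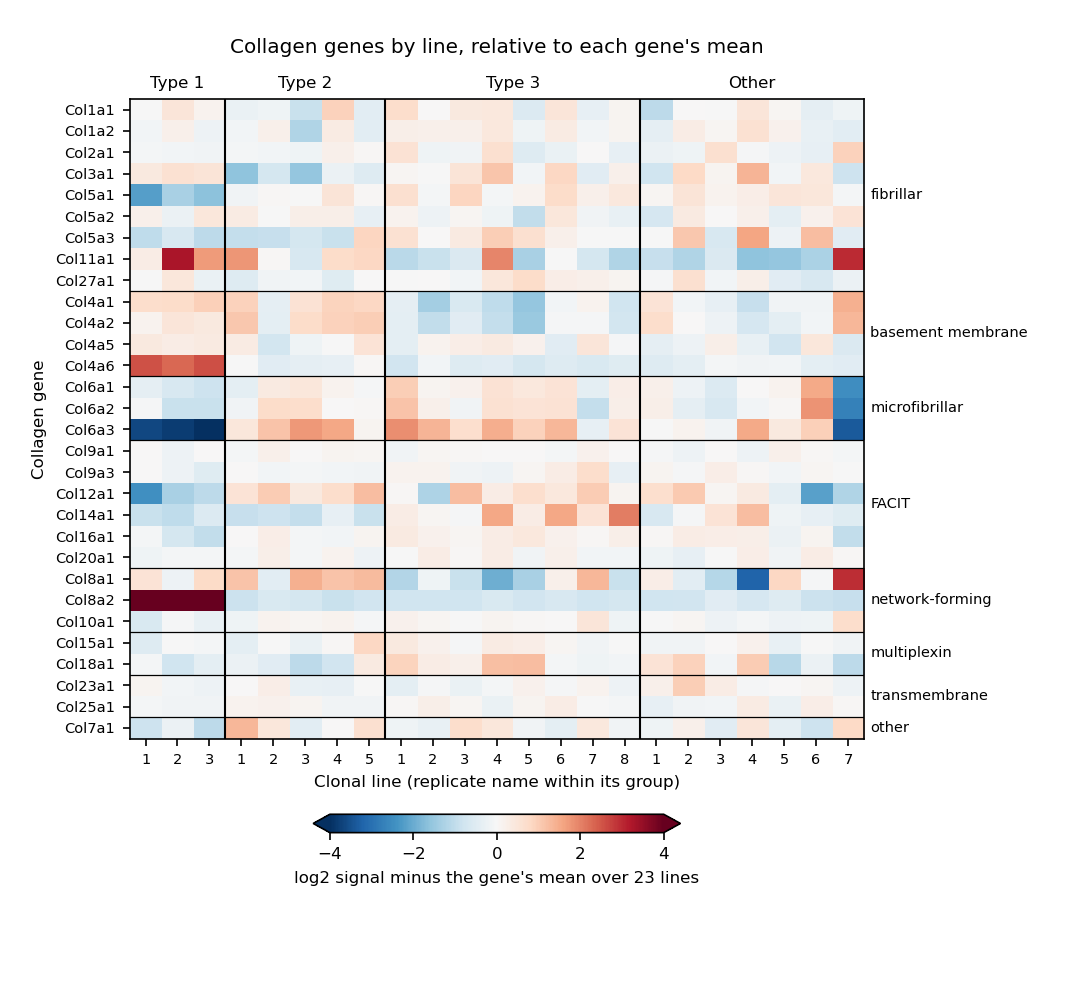
The 30 collagen genes that exceeded the table median in 1 line or more (rows, by class) in the 23 clonal lines (columns, by group); colour is the log2 signal of a line minus the gene's mean over 23 lines, with values beyond 4 drawn in the end colours. Col8a2 and Col4a6 stand out as high and Col6a3 and Col5a1 as low in the 3 Type 1 lines, and Other replicate 7 is low for Col6a1, Col6a2 and Col6a3.

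Collagens varied among clones of a group. The median within-group SD was 0.39 for the 30 collagen genes that were not low in every line and 0.21 for the 12906 genes of that kind, a description without a test. The widest spreads belonged to Col8a1 and Col11a1, each with a within-group SD of 1.28, followed by Col6a3 at 1.04. Other replicate 7, a PGF line, stood apart. Its median distance from the group mean over the 30 genes was 0.60, and no other line exceeded 0.32. It lay more than 1 log2 unit from its group mean for 8 of the 30 genes, beside 5.65% of the 12906 genes. Other replicate 4 did so for 7 (beside 3.29%) and Other replicate 6 for 4 (beside 3.56%). Other replicate 7 had the lowest Other signals for Col6a1 (7.73), Col6a2 (7.49) and Col6a3 (7.30). It had the highest for Col8a1 (12.03), Col4a1 (12.11), Col4a2 (11.22) and Col11a1 (8.76). Type 1 replicate 1 differed from the other lines in the gap between the 3′ and 5′ probe sets of beta-actin, a measure of RNA integrity and labelling. The gap was 1.58 there and 0.53 to 1.00 in the other 22 lines.

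Type 1 differed from the other groups in a few collagens by a large amount. Col8a2 and Col4a6 were higher in all 3 Type 1 lines than in any other line, while Col6a3 and Col5a1 were lower in all 3 than in any other line. In the limma fit, in which Type 1 was set against the mean of the Type 2, Type 3 and Other means and p-values were adjusted over all 18193 genes, 9 of the 42 collagen genes passed an adjusted p of 0.05, 3 of them higher and 6 lower. That is 21.4% of the collagen genes, beside 23.8% of all genes (13.4% higher, 10.5% lower), so the number of collagens that changed was near the background. The higher collagens numbered 5 without Other replicate 7, the lower ones 3 without Type 1 replicate 1 or 3 or with depot in the model, and the genes that passed in all fell from 4339 to 2735 without Type 1 replicate 1. A difference of at least 1 log2 unit with a pass was found for 5 collagens (11.9%), beside 7.48% of all genes. The 4 genes without overlap are 9.52% of the collagens, beside 9.84% of all genes (5.68% above, 4.16% below). The median difference was -0.076 over the collagens, with 16 above and 26 below 0, and -0.012 over all genes. By class, the passing genes were 1 lower of 11 fibrillar, 2 higher of 6 basement membrane, 1 lower of 5 microfibrillar, 2 lower of 9 FACIT, 1 higher of 3 network-forming and 1 lower of 4 transmembrane genes, and Col7a1.

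**Figure D2:**
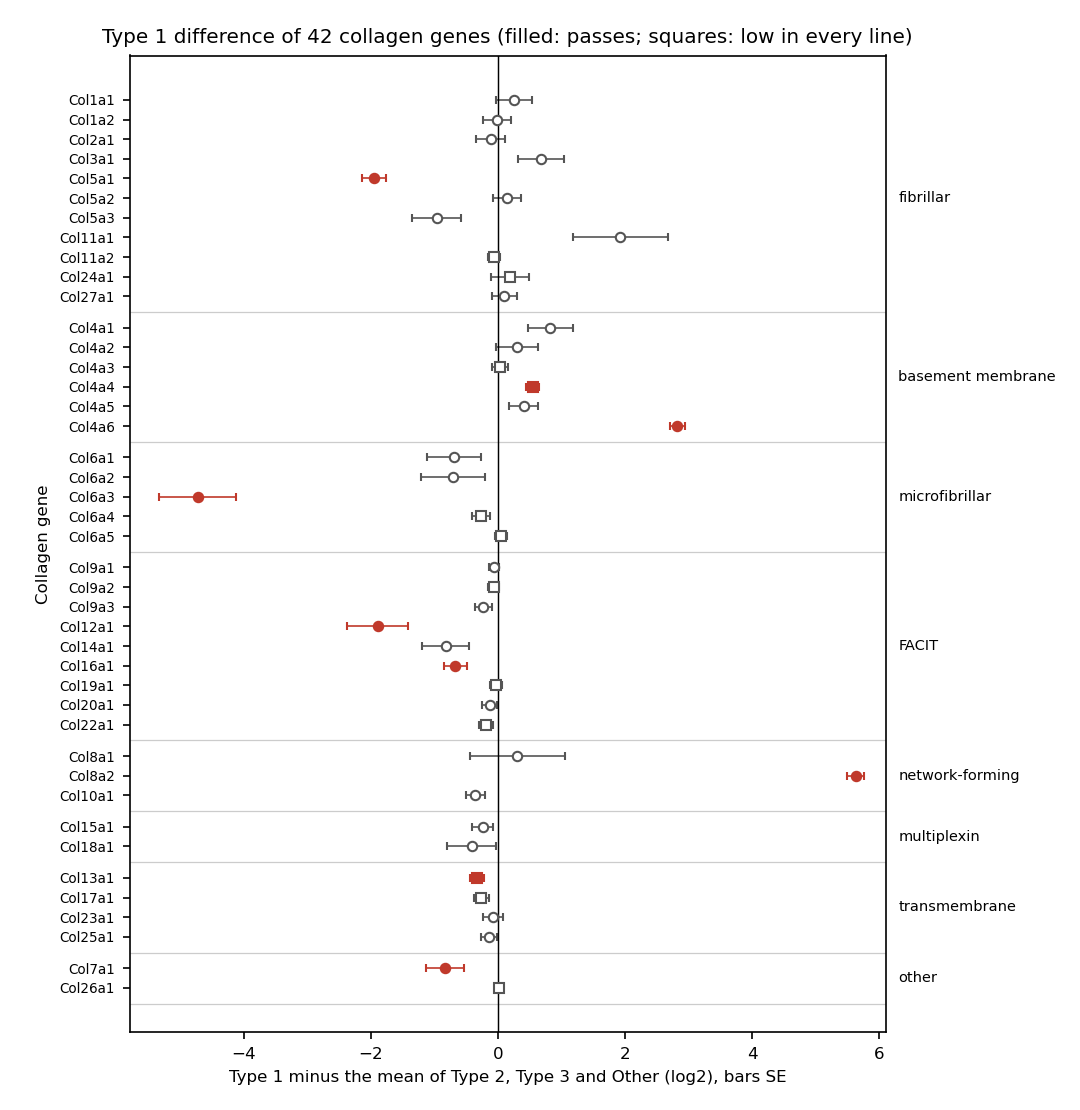
Type 1 minus the mean of the Type 2, Type 3 and Other means on the log2 scale (horizontal axis, bars 1 SE) for the 42 collagen genes (vertical axis, by class); filled symbols pass an adjusted p of 0.05 in limma and squares are genes below the table median in every line. Col8a2 (5.63) and Col6a3 (-4.73) lie at the ends, and most genes lie near 0.

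Col8a2 encodes a short-chain collagen known from sheet-like networks such as that of the corneal endothelium. Its log2 signal was 9.09, 7.95 and 8.71 in the 3 Type 1 lines. In Type 2 it was 2.84, 3.09, 2.98, 2.81 and 2.93. Type 3 ran from 2.89 through a median of 2.91 to 3.08, and Other from 2.77 through 2.92 to 3.22. All lines outside Type 1 thus sat near the low end of the table, and none came near a Type 1 line. The difference was 5.63 ± 0.14 (SE), a fold of 49.6, with an adjusted p of 3.00e-18 in limma. It was 3.45 when all signals below the table median were set to that median, since the size of the fold rests on background signals in the other 20 lines. Its partner chain Col8a1, which can assemble with it, was above the table median in every line. Col8a1 was 9.62, 8.88 and 9.83 in Type 1, within the range of 5.87 to 12.03 of the other lines, and the difference of 0.30 ± 0.75 did not pass.

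Among the basement membrane genes, Col4a6, a chain of a more restricted type IV network, was higher in Type 1. It was 7.71, 7.45 and 7.74 in the 3 Type 1 lines and 5.13, 4.69, 4.81, 4.82 and 5.20 in Type 2. In Type 3 it ran from 4.38 through 4.64 to 5.05 and in Other from 4.64 through 4.78 to 5.07. No line outside Type 1 exceeded 5.20. The difference was 2.82 ± 0.12, a fold of 7.08, with an adjusted p of 4.97e-14 in limma. Col4a6 was above the table median in 4 of the 23 lines, so the size of the fold rests on low signals outside Type 1. Its neighbour Col4a5, which shares the stretch between their starts, was above the table median in all lines. It was 9.86, 9.78 and 9.85 in Type 1 and 8.73 to 10.04 elsewhere, with a difference of 0.40 that did not pass. Col4a4 passed with 0.54 ± 0.11 (adjusted p 0.000504 in limma), but it was below the table median in every line (3.48 to 4.33 in Type 1, 3.15 to 3.51 elsewhere) and had no difference once low signals were set to the median. Without Type 1 replicate 1 the Col4a4 difference was 0.32. The ubiquitous chains Col4a1 and Col4a2 differed by 0.83 and 0.29 and did not pass against the mean of the other groups. Against Type 3 alone Col4a1 was higher in Type 1 by 1.50 ± 0.39 (adjusted p 0.00589 in limma). A second Col4a1 probe set, above the table median in all lines, gave a smaller difference of 0.34 from the mean of the other groups. Its means were 8.57 in Type 1 and 7.63 in Type 3.

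Of the microfibrillar genes, Col6a3, the largest chain of type VI collagen, fell in Type 1 while its 2 partner chains did not pass. Its signal was 7.03, 6.85 and 5.81 in Type 1 and 11.12, 11.79, 12.40, 12.22 and 10.78 in Type 2. Type 3 ran from 10.34 through 11.78 to 12.52 and Other from 7.30 through 10.81 to 12.16. The 3 Type 1 lines lay below all others, but Other replicate 7, at 7.30, came close to the highest of them. The next lowest line was at 10.34. Col6a3 fell by 4.73 ± 0.61, a fold of 26.5, with an adjusted p of 3.85e-06 in limma, and by 4.91 without Other replicate 7. Col6a1 was 9.88, 9.58 and 9.39 in Type 1 and 7.73 to 11.73 elsewhere, a difference of -0.69. Col6a2 was 10.15, 9.29 and 9.29 in Type 1 and 7.49 to 11.99 elsewhere, a difference of -0.71.

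Of the 11 fibrillar genes, Col5a1 passed. Col5a1 encodes a type V chain, which is built into type I fibrils and limits their diameter. It was 8.98, 9.90 and 9.54 in Type 1 and 11.03, 11.22, 11.16, 11.69 and 11.22 in Type 2. Type 3 ran from 11.10 through 11.50 to 12.04 and Other from 11.12 through 11.44 to 11.71. The lowest line outside Type 1 was at 11.03, above all 3. Col5a1 fell by 1.95 ± 0.19, a fold of 3.86, with an adjusted p of 5.20e-08 in limma. Col5a2, its usual partner, was 13.15, 12.72 and 13.42 in Type 1 and 11.97 to 13.52 elsewhere, with a difference of 0.14. Col5a3, another type V chain, differed by -0.96 ± 0.39 (adjusted p 0.0766 in limma) and passed only against Type 3 (-1.25) and Other (-1.27). Both Col5a3 calls were lost without any 1 of the Type 1 lines, without Type 3 replicate 1, 4 or 5 for the former and without Other replicate 2, 4 or 6 for the latter.

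Both chains of type I collagen, the main fibre of connective tissue, did not pass. Col1a1 differed by 0.25 ± 0.29 and Col1a2 by -0.02 ± 0.23. Col3a1, the chain of the fine fibres that accompany type I, was 12.95, 13.18 and 13.10 in Type 1 and differed by 0.68 from the mean of the other groups without a pass. It was higher than in Type 2 by 1.43 ± 0.43 (adjusted p 0.0218 in limma), a call lost without any 1 of the Type 1 lines or Type 2 replicate 1 or 3 (1.26 to 1.50). Col11a1, a chain best known from cartilage fibrils, was 6.06, 9.05 and 7.47 in Type 1 and differed by 1.93 ± 0.75 (adjusted p 0.0662 in limma). Those lines overlapped Type 2 (5.14 to 7.54), Type 3 (4.47 to 7.74) and Other (4.18 to 8.76).

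In the FACIT class Col12a1 and Col16a1 passed as lower. Col12a1, which coats type I fibrils, was 6.53, 7.68 and 7.94 in Type 1 and 9.52, 10.00, 9.39, 9.69 and 10.21 in Type 2. Type 3 ran from 7.76 through 9.34 to 10.21 and Other from 6.81 through 9.07 to 10.02. All Type 2 lines were above Type 1, while 1 Type 3 line and 2 Other lines lay in the Type 1 range. Col12a1 fell by 1.90 ± 0.48, a fold of 3.72 (adjusted p 0.00578 in limma). Without Type 1 replicate 1, the line with the widest actin gap, the difference was -1.47 with an adjusted p of 0.0898, and it was -0.72 as the mean over all 4 probe sets, of which 2 were low in every line. Col16a1 fell by 0.67 ± 0.19 (adjusted p 0.0104 in limma), a call lost without Type 1 replicate 2 (-0.62) or 3 (-0.48), with depot in the model (-0.54) and in PGF lines alone (-0.58). Col14a1, another fibril-surface chain, was 4.61, 4.48 and 4.97 in Type 1. Its difference of -0.83 did not pass, and against Type 3 alone it fell by 1.61 ± 0.40 (adjusted p 0.00454 in limma). These Type 1 signals were below the table median. The other Col14a1 probe sets, low in every line, had smaller gaps, with means of 4.181 and 3.425 in Type 1 and 4.639 and 3.528 in Type 3.

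**Figure D3:**
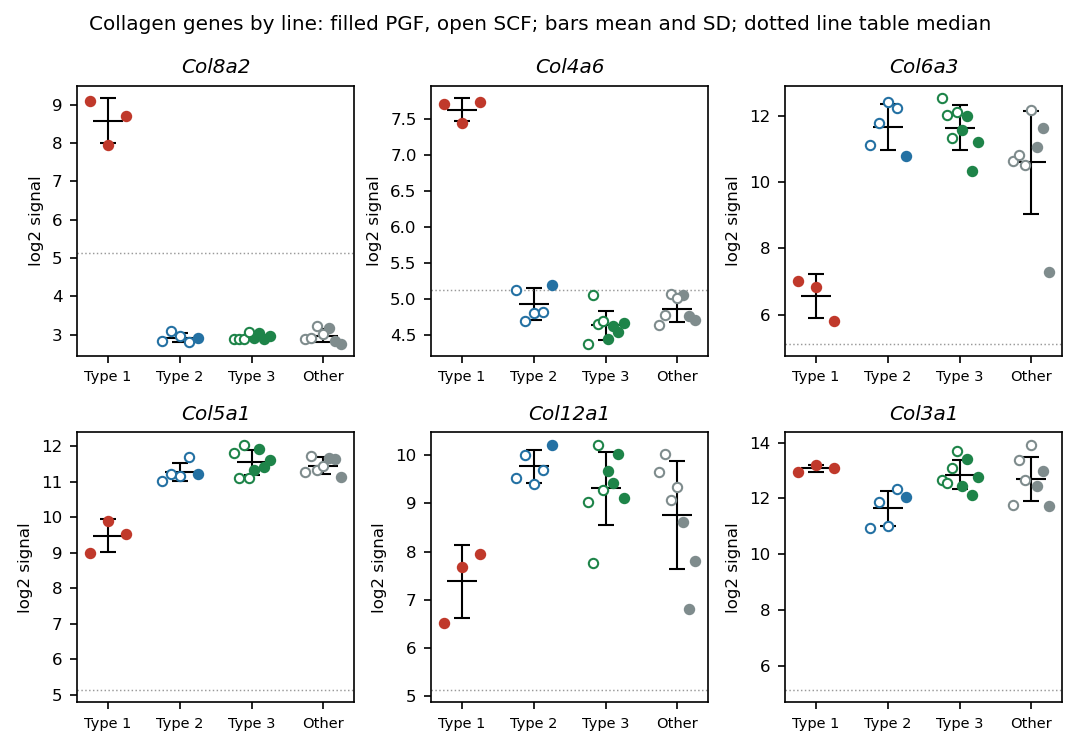
Log2 signal (vertical axis) of 6 collagen genes in each line by group (horizontal axis); filled points are PGF lines, open points SCF lines, bars the mean and SD, and the dotted line the table median of 5.13. The 3 Type 1 lines are above all others for Col8a2 and Col4a6, below all others for Col6a3 and Col5a1, and overlap Type 3 and Other for Col12a1 and Col3a1.

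Outside these classes, 2 genes passed as lower by a small margin. Col13a1, a membrane-spanning collagen, fell by 0.33 ± 0.11 (adjusted p 0.0253 in limma) at signals below the table median in every line, and had no difference with low signals set to the median. The Col13a1 call was also lost without Type 1 replicate 1 (-0.14) or 3 (-0.36), with depot in the model (-0.31), in PGF lines alone (-0.31) and with quantile normalization (-0.27). Col7a1 fell by 0.83 ± 0.30 at an adjusted p of 0.0499 in limma, and lost its call in 22 of 34 alternatives. The multiplexins Col15a1 and Col18a1 differed by -0.24 and -0.42 and did not pass. Set against single groups, with the shared Type 1 lines in each contrast, Type 1 had 10 passing collagens beside Type 2 (4 higher, 6 lower; 17.3% of all genes passed), 11 beside Type 3 (4 higher, 7 lower; 24.1%) and 6 beside Other (3 higher, 3 lower; 19.5%). Col8a2, Col4a6, Col6a3 and Col5a1 passed in each of these, also with each line left out in turn. These fits against single groups with a line left out were added after seeing the data.

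All Type 1 lines were PGF, so the type contrast was also read with depot in the model and in the PGF lines alone. With depot in the model the differences were 5.65 for Col8a2, 2.83 for Col4a6, -4.16 for Col6a3, -1.97 for Col5a1 and -1.67 for Col12a1. Among the 11 PGF lines they were 5.65, 2.76, -4.12, -1.95 and -1.79 in the same order. All 5 passed in both fits.

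Markers of other cell types moved with Type 1. Of 6 mesothelial markers, genes of the cell layer that covers visceral organs, 5 were higher (Wt1, Msln, Upk3b, Krt18 and Lrrn4) and Krt19 differed by -1.64 without a pass. Their mean signal was 9.15 to 10.14 in Type 1 lines and 3.71 to 5.22 in the other lines. Of 6 preadipocyte and fibroblast markers, 4 were lower (Pdgfra, Pdgfrb, Pparg and Cebpa) and Cd34 was higher. Thy1 did not pass, with means of 9.25 in Type 1 and 7.19, 7.03 and 7.82 in Type 2, Type 3 and Other. The mean of the 6 markers was 7.79 to 8.05 in Type 1 and 7.44 to 10.09 elsewhere. As each of 23 lines was left out, the call was lost 13 times for Pdgfra, with a difference of -0.87 without Type 1 replicate 2, and 16 times for Cd34. Pparg, the central fat cell regulator, was 4.17 to 5.73 in Type 1 and 5.64 to 9.20 elsewhere. Of 6 smooth muscle and pericyte markers, Tagln was higher (list mean 7.47 to 8.10 in Type 1, 5.79 to 8.25 elsewhere). Of 4 leukocyte genes, Ptprc was at most 3.61 and Adgre1 at most 3.82 in any line. Cd68 reached 7.66 in Type 1 and Csf1r 11.68 in Other. Of 4 endothelial genes, Pecam1 was at most 3.76 and Cdh5 at most 4.39 in any line. Kdr reached 8.86 in Type 1 and Tek 10.59 in Other. The part of these markers in the collagen differences was not tested, and in such bulk RNA fewer cells of a type and less RNA per cell cannot be told apart.

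Genes that make, process, bind and degrade collagen were read from 4 lists, which were not tested as sets, and their counts stand beside the 23.8% of all genes that passed (13.4% higher, 10.5% lower). Of 17 hydroxylases and chaperones, 2 were higher and 7 lower, with a list median of -0.003 beside -0.012 over all genes, and 4 to 7 were lower as each line was left out. P3h3, a prolyl hydroxylase family member, fell by 1.78 ± 0.22 and Plod1, a lysyl hydroxylase, fell by 1.12 ± 0.24, while P3h4, a partner of lysyl hydroxylase, rose by 1.22 ± 0.12 (adjusted p 2.28e-06, 0.00124 and 5.89e-08 in limma). The collagen chaperone Serpinh1 differed by 0.13 and did not pass. Of 11 genes for propeptide processing and crosslinking, 1 was higher and 4 were lower, with a list median of -0.56. Adamts3, which cleaves amino-terminal propeptides, was 5.77 to 7.04 in Type 1 and 2.81 to 3.32 elsewhere, and rose by 3.09 ± 0.16. The lines outside Type 1 were near array background for Adamts3, and the difference was 1.09 with low signals set to the table median. Pcolce, an enhancer of carboxy-terminal propeptide cleavage, fell by 1.30 ± 0.19, and the crosslinking enzymes Loxl1, Loxl3 and Loxl4 fell by 1.11, 1.63 and 1.17. All these passed, and Lox itself (-0.56) did not.

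Of 9 collagen receptors, 3 were higher and 2 lower. The integrin Itga1 rose by 2.37 ± 0.28 and the receptor kinase Ddr1 by 1.18 ± 0.24, while the related kinase Ddr2 fell by 1.38 ± 0.20 and Mrc2, which takes up collagen, fell by 1.82 ± 0.19. The fifth was the integrin chain Itgb1, higher by 0.45. Of 10 collagen-degrading enzymes, 2 were higher and 1 lower. The collagenase Mmp13 was 6.82 to 9.66 in Type 1, and 1 Other line reached 8.42. Mmp13 rose by 5.10 ± 0.73 and the membrane-bound Mmp14 by 0.83 ± 0.29. Type 2 and Type 3 had means of 3.07 and 2.85 for Mmp13, near array background, and its difference was 3.09 with low signals set to the table median. The Mmp14 call was lost with that setting and in 13 of 23 fits with 1 line left out. The lysosomal protease Ctsk was 4.26 to 6.27 in Type 1 and 8.36 to 11.29 elsewhere, and fell by 4.87 ± 0.41 (adjusted p 6.58e-09 in limma).

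Between Type 2 and Type 3, 0 of 42 collagen genes passed in limma (0.0495% of all genes did, 9 genes), and 9 collagens had an unadjusted p under 0.05 (13.4% of all genes). The smallest p-values belonged to a FACIT gene with lower values in Type 2 and to the paired type IV chains with higher values there. Col14a1 was 4.58, 4.67, 4.55, 5.18 and 4.63 in Type 2 and ran from 5.45 through 5.94 to 7.55 in Type 3. All Type 2 lines were below all Type 3 lines, a separation in that direction shown by 1.01% of all genes. The difference was -1.58 ± 0.34 with an adjusted p of 0.0570 in limma, 0.0160 to 0.195 over the alternatives, of which 5 of 34 gave a pass. As the mean of its 3 probe sets, of which 2 were low in every line, it was -0.61. Without Other replicate 7, which enters only through the shared spread, the adjusted p in limma was 0.0290. Without Other replicate 4 the adjusted p was 0.0288.

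Col4a1 was 11.61, 10.34, 11.27, 11.59 and 11.52 in Type 2 and ran from 9.13 through 9.98 to 10.84 in Type 3. Only Type 2 replicate 2 lay within the Type 3 range. The difference was 1.29 ± 0.32 (adjusted p 0.0981 in limma). Col4a2 was 10.97, 9.50, 10.62, 10.79 and 10.85 in Type 2 and ran from 8.39 through 9.29 to 9.84 in Type 3, with the same line inside the Type 3 range. The difference was 1.30 ± 0.30 (adjusted p 0.0850 in limma). Over the alternatives the adjusted p ran from 0.0152 to 0.245 for Col4a1 and from 0.0116 to 0.224 for Col4a2. Both passed in 3 of 34, with 0.0290 and 0.0248 without Other replicate 7, where Col14a1 passed too. Next in order was Col3a1, lower in value in Type 2 by 1.20 log2 units with an adjusted p of 0.128 in limma. In the 4 lists of genes that make, process, bind and degrade collagen, 0 of 47 passed between these types in limma. An unadjusted p under 0.05 was found for 7 of the 47. Of all genes, 0.0495% passed and 13.4% had an unadjusted p under 0.05.

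**Figure D4:**
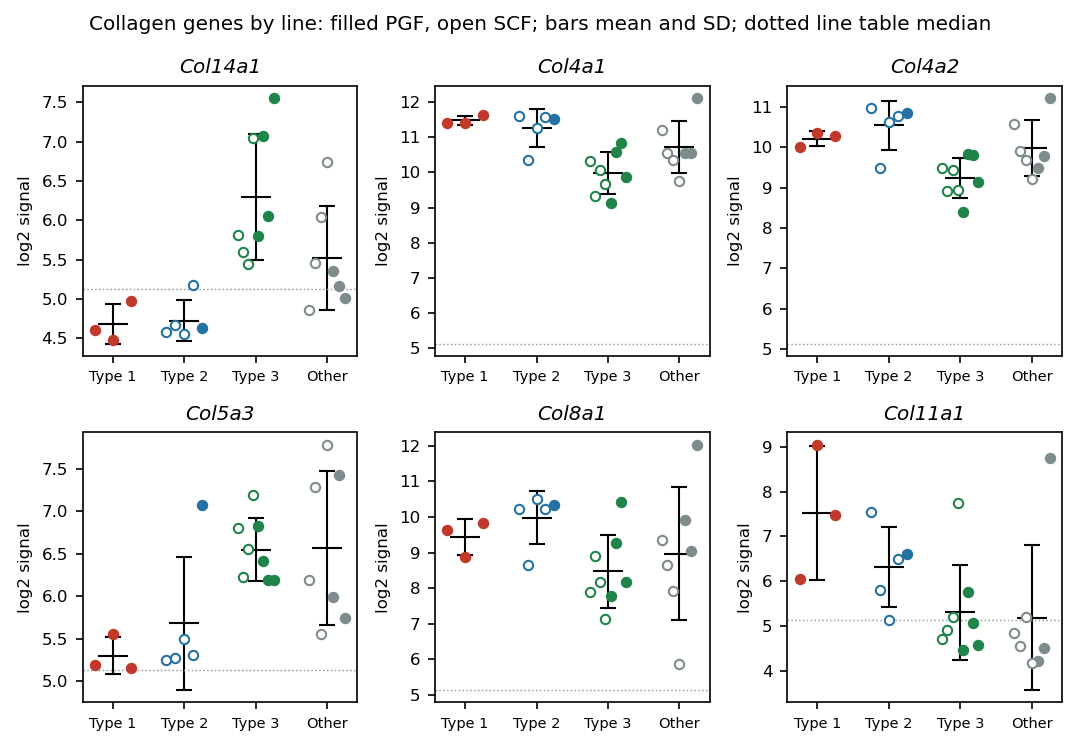
Log2 signal (vertical axis) of 6 collagen genes in each line by group (horizontal axis); filled points are PGF lines, open points SCF lines, bars the mean and SD, and the dotted line the table median of 5.13. Type 2 lies below Type 3 for Col14a1, Type 2 replicate 2 is the low Type 2 point for Col4a1, Col4a2 and Col8a1, and Other replicate 7 is the highest Other line for Col4a1, Col4a2, Col8a1 and Col11a1.

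The lines without a numbered type gave no passing collagen against Type 2 or Type 3 in limma. Against Type 2, 0 of 42 passed (0.00550% of all genes) and 5 had an unadjusted p under 0.05 (11.0% of all genes). The 3 smallest p-values were those of Col3a1, Col9a2 and Col5a3. Col3a1 ran from 11.74 through 12.67 to 13.92 in Other and was 10.95, 11.87, 11.01, 12.35 and 12.06 in Type 2, so the groups overlapped, and the difference was 1.05 ± 0.34 (adjusted p 0.234 in limma). Col5a3 ran from 5.56 through 6.19 to 7.78 in Other and was 5.25, 5.27, 5.49, 5.31 and 7.07 in Type 2. Only Type 2 replicate 5 reached the Other range. The difference was 0.89 ± 0.37. Col9a2, low in every line, ran from 4.22 through 4.39 to 4.57 in Other and was 4.29, 4.14, 4.25, 4.06 and 4.04 in Type 2, a difference of 0.21.

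Against Type 3, 0 of 42 passed in limma (0.00% of all genes) and 6 had an unadjusted p under 0.05 (7.75% of all genes). Col9a2 differed by 0.21 ± 0.08, from 3.94 through 4.18 to 4.37 in Type 3. Col4a2 ran from 9.22 through 9.78 to 11.22 in Other and differed by 0.73 ± 0.28. Col14a1 ran from 4.86 through 5.35 to 6.74 in Other and differed by -0.78 ± 0.31. The groups overlapped for all 3, and their adjusted p-values in limma ran from 0.592 to 0.601.

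The depot of origin, compared within groups, gave 0 passing collagens in limma (0.00% of all genes) and 3 at an unadjusted p under 0.05 (8.06% of all genes). Outside Type 1, Col8a1 ran from 7.79 through 9.59 to 12.03 in 8 PGF lines and from 5.87 through 8.66 to 10.50 in 12 SCF lines, a difference of 1.38 ± 0.49 (adjusted p 0.559 in limma). Col24a1, low in every line, ran from 2.80 through 3.17 to 4.78 in PGF and from 2.40 through 2.80 to 3.15 in SCF, a difference of 0.54 ± 0.20, which was 0.32 without Other replicate 6. Col6a3 ran from 7.30 through 11.12 to 11.98 in PGF and from 10.51 through 11.91 to 12.52 in SCF, a difference of -0.91 ± 0.43. Without Other replicate 7 the Col6a3 difference was -0.47. The depots overlapped for all 3.

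The labels give each line a score for differentiation, judged by lipid staining, which ran from 2 to 4 here. All Type 1 lines scored 2, so slopes within groups rest on the other 20 lines. In limma 0 collagens passed (0.00% of all genes) and 5 had an unadjusted p under 0.05 (6.28% of all genes). Col5a2 ran from 12.72 through 13.18 to 13.52 in the 11 lines with score 2, from 12.30 through 13.09 to 13.41 in the 7 with score 3 and from 11.97 through 12.64 to 12.93 in the 5 with score 4. Its slope was -0.28 ± 0.09 per point (adjusted p 0.559 in limma). The slopes of Col4a2 and Col4a1 were -0.39 ± 0.13 and -0.37 ± 0.15 per point. Col4a2 had medians of 10.28, 9.48 and 9.48 at scores 2, 3 and 4, and Col4a1 of 11.40, 10.33 and 10.34, with ranges that overlapped. Unlike the slopes, the ranges and medians by score are over all lines, with the 3 Type 1 lines at score 2. In those lines Col4a1 was 11.40 to 11.64 and Col4a2 10.01 to 10.36, so the step from score 2 also holds a difference between types.

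For the media acidification score, from 1 to 4 with a direction that the sources used here leave unstated, 0 collagens passed in limma (0.00% of all genes) and 10 had an unadjusted p under 0.05 (10.3% of all genes). Col6a3 had a slope of 0.50 ± 0.15 per point (adjusted p 0.341 in limma). It ran from 7.30 through 10.64 to 11.06 in the 7 lines with score 1, from 5.81 through 11.19 to 12.40 in the 3 with score 2, from 11.32 through 11.98 to 12.10 in the 5 with score 3 and from 6.85 through 11.70 to 12.52 in the 8 with score 4. The lowest lines at scores 2 and 4 are Type 1 lines. Col20a1 and Col22a1, FACIT genes, had slopes of 0.10 ± 0.03 and 0.09 ± 0.03 per point (adjusted p 0.337 and 0.351 in limma). Over all 23 lines, Col20a1 had medians of 5.19, 5.25, 5.55 and 5.40 at scores 1 to 4. Col22a1, low in every line, had medians of 4.38, 4.31, 4.58 and 4.49.

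Chains that build 1 molecule, or lie side by side on a chromosome, were compared across the 23 lines after each gene was centred on its group mean. Of 8 pairs, 4 were correlated after adjustment over the pairs, in two-sided permutation tests with 100000 permutations within groups, for which 1e-05 is the smallest p they can give. Col4a1 and Col4a2, which form the common type IV molecule from neighbouring genes, had Pearson's r = 0.97 (p = 1e-05, adjusted p 4e-05) and Spearman's rho = 0.97 (p = 1e-05), by permutation. Without the 2 lines farthest from the median of Col4a1 r was 0.94. Col6a1 and Col6a2 had r = 0.98 (p = 1e-05, adjusted p 4e-05) and rho = 0.94 (p = 1e-05), by permutation, and r = 0.94 without the 2 farthest lines. Col1a1 and Col1a2 had r = 0.81 (p = 9e-05, adjusted p 0.00024) and rho = 0.83 (p = 1e-05), by permutation, and r = 0.78 without the 2 farthest.

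Col6a1 and Col6a3 had r = 0.86 (p = 0.00026, adjusted p 0.00052) and rho = 0.77 (p = 0.0001), by permutation. Their r was 0.73 without the 2 farthest lines and 0.64 without Other replicate 7 alone, a check added after seeing the data. The Type 1 lines had lower Col6a3 signals than other lines with Col6a1 signals in their range. Col4a5 and Col4a6 had r = 0.37 (p = 0.117, adjusted p 0.187) and rho = 0.45 (p = 0.0536), by permutation, with r = 0.40 without the 2 farthest. Col3a1 and Col5a2, neighbours on a chromosome, had r = 0.21 (p = 0.387, adjusted p 0.476) and rho = 0.17 (p = 0.467), by permutation, with r = 0.36 without the 2 farthest. Col5a1 and Col5a2 had r = 0.17 (p = 0.476, adjusted p 0.476) and rho = 0.23 (p = 0.321), by permutation, with r = 0.29. Col8a1 and Col8a2 had r = -0.14 (p = 0.452, adjusted p 0.476) and rho = -0.18 (p = 0.426), by permutation. Col8a2 was near background in all lines outside Type 1, and without the 2 farthest lines r was 0.00. Without Other replicate 7, r was 0.39 for Col3a1 and Col5a2, 0.28 for Col5a1 and Col5a2 and -0.01 for Col8a1 and Col8a2, and none of these passed. Without the Type 1 lines r was -0.43 for Col8a1 and Col8a2 and 0.29 for Col5a1 and Col5a2, and as the mean of probe sets it was 0.12 for Col4a5 and Col4a6. The adjusted p of rho was 0.0002 or less for the 4 pairs that passed and at least 0.0858 for the others. All lines share a mouse and an array design, and the lines are not independent animals.

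**Figure D5:**
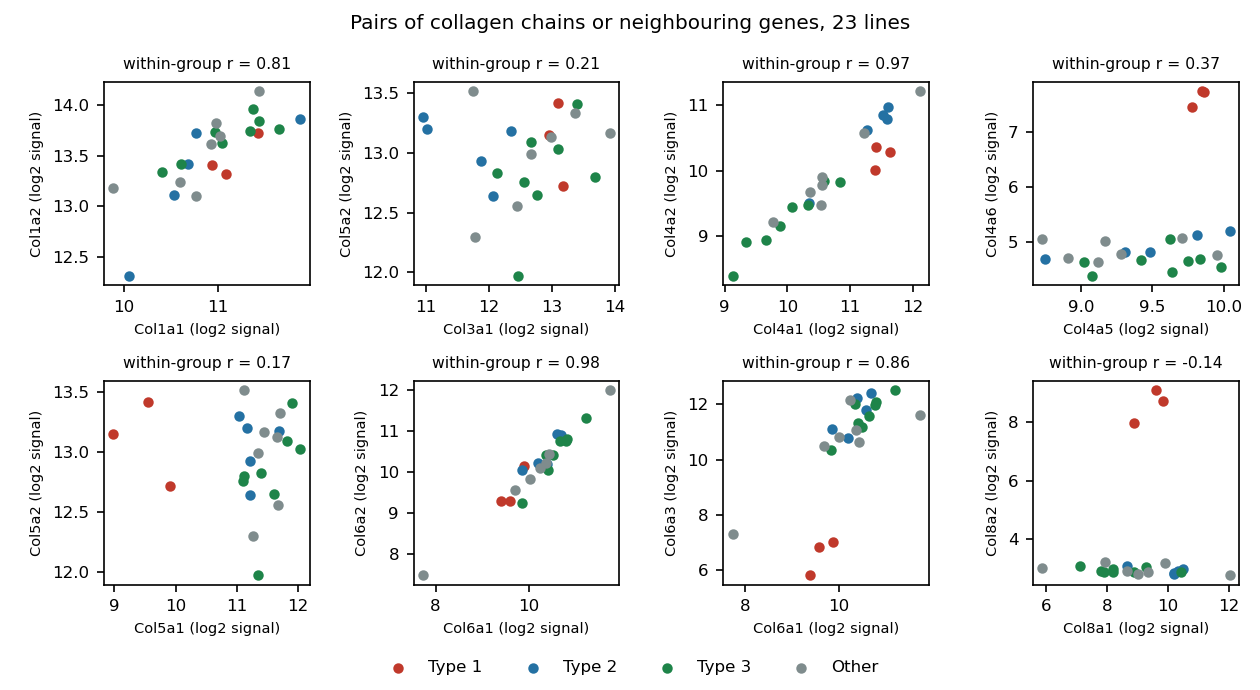
Log2 signals of 8 pairs of collagen genes (each axis 1 gene) in the 23 lines, coloured by group; the r above each panel is Pearson's, over values centred on the group mean. Col4a1 with Col4a2 (0.97) and Col6a1 with Col6a2 (0.98) vary together within groups, and the 3 Type 1 lines lie apart for Col4a6, Col6a3, Col5a1 and Col8a2. For Col4a1 and Col4a2 the means were 11.48 and 10.22 in Type 1 and 11.27 and 10.55 in Type 2. Type 1 thus had lower Col4a2 signals beside its Col4a1 signals on the Col4a1 probe set used. A second Col4a1 probe set had means of 8.57 in Type 1 and 8.78 in Type 2, lower in Type 1 as for Col4a2.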

How the data were processed

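Expression was measured on 23 mouse arrays, 1 per clonal line, from 250 ng of RNA (per the labels' protocols). Deposited values are log2 signals from 2.03 to 14.46, a scale read from the values, and the submitters' processing notes name MAS5 with no version; the scaling of the arrays is not stated in them. Medians of the arrays ran from 5.09 to 5.16, and array pairs correlated at 0.937 to 0.992. Of 45101 probe sets, 34945 carried a single gene symbol and 932 several; the latter named no gene. The 42 collagen genes have 82 probe sets, with several for 27 genes, and the one with the highest average signal was used.

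Values were used as deposited, with no filter on low signals, so every collagen gene was tested. Groups were fitted over all 23 lines by limma's lmFit and eBayes (limma 3.58.1, R 4.3.3), with Benjamini-Hochberg adjustment over 18193 genes and a threshold of 0.05. Depot and score contrasts held the group in the model. Depot was read from the clone name. Replicate numbers were given in deposition order and serve only as names. Correlations and plots used pandas 2.3.3, scipy 1.17.1, numpy 2.4.6 and, for drawing, matplotlib 3.10.9 under Python 3.11.15. The scripts were tested on simulated data. The number of arrays limits the precision.

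Values by line are given for collagens that passed in Type 1 with a difference of at least 1, and, where none passed, for the 3 with the smallest p; other named members were picked after their values were seen. The classes follow the known families. The collagens, the classes and the gene lists were chosen with earlier results of these data known. Not matched to a single-symbol probe set were Col6a6, Col28a1 and 9 list genes (Fkbp10, Adamts2, Adamts14, Loxl2, Itga11, Mmp15, Ly6a, Runx2 and Bglap). Of 5 chondrocyte and osteoblast genes, Sox9 was lower in Type 1; of 4 endothelial genes, Kdr was higher and Tek lower; of 4 leukocyte genes, Csf1r was lower; of 4 epithelial genes, Cdh1 and Krt14 were higher. Alternatives were a filter, 2 scalings, a floor, the mean of probe sets, another variance model, array weights, added covariates and subsets of lines.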

Additional observations from a re-analysis of the deposited data

Results flagged for a closer look

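Each collagen was checked, in each group of 4 to 10 lines, for a line whose distance to its nearest neighbour was large against the range of the group. Of 126 such groups, 15 held one, and chance gives about 1 in 20; 2 of the 15 were on genes low in every line and 4 on Other replicate 7.

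Type 2 replicate 2 was the lowest Type 2 line for Col4a1 (10.34, next 11.27), Col4a2 (9.50, next 10.62) and Col8a1 (8.66, next 10.21). Type 2 replicate 4 was the highest for Col5a1 (11.69, next 11.22) and Col14a1 (5.18, next 4.67). Type 2 replicate 5, its only PGF line, was the highest for Col5a3 (7.07, next 5.49) and the lowest for Col6a4 (4.22, next 4.61).

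Other replicate 7 was the lowest Other line for Col6a3 (7.30, next 10.51) and Col16a1 (7.57, next 8.32), and the highest for Col10a1 (5.25, next 4.64) and Col11a1 (8.76, next 5.21). Other replicate 2 was the highest for Col23a1 (5.35, next 4.66) and Other replicate 6 for Col24a1 (4.78, next 3.15). In Type 3, replicate 2 was the highest for Col4a6 (5.05, next 4.69) and replicate 4 for Col11a1 (7.74, next 5.76).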

How the results depend on the processing

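Col8a2, Col4a6, Col5a1 and Col6a3 kept their direction and their call in limma in all 34 alternatives of the Type 1 contrast. The count of all genes that passed there (4339) was 7183 with array weights and 2539 in PGF lines only, and 2735 to 4607 as each line was left out, the lowest without Type 1 replicate 1. Collagens higher in Type 1 (3) numbered 6 with array weights and 3 to 5 as each line was left out, with 5 without Other replicate 7. Collagens lower (6) numbered 12 with array weights, 3 with depot in the model and 3 to 8 as each line was left out, with 3 without Type 1 replicate 1 or 3.

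For Type 2 against Type 3 the genes that passed (9) numbered 47 with the filter, 20 with median-centred arrays, 1 with the floor, 1 with the mean of probe sets, 540 with array weights, 3 with the clone-name number in the model, 44 with depot in the model, 1 without the Type 1 lines and 400 without the Other lines. As each line was left out they numbered 0 to 141, the latter without Other replicate 7. Collagens higher in Type 2 (0) were 2 with array weights and 2 without the Other lines, and 0 to 2 with a line left out, with 2 without Other replicate 7. Those lower (0) were 1 with the filter, 2 with array weights and 2 without the Other lines, and 0 to 1 with a line left out, with 1 without Other replicate 4 or 7.

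For Other against Type 2 the genes that passed (1) numbered 3 with the floor, 0 with the mean of probe sets, 38 with array weights, 2 without the Type 1 lines, and 0 to 141 with a line left out, with 141 without Other replicate 7. The r of Col8a1 and Col8a2 moved from -0.14 to 0.00 without the 2 lines farthest from the median of Col8a1. The causes were not tested. No collagen passed in the other contrasts under any alternative run. No paired analysis was possible because the replicate numbers only name lines, in deposition order, and pair none. Signals near the array background limit the 12 genes low in every line.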

Other observations

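Other probe sets of the same gene gave further readings of some members. For Col5a1 the other probe sets differed by -1.40 and -1.05 between Type 1 and the mean of the other groups, beside -1.95 for the one used. For Col4a6 the other probe set differed by 1.23, beside 2.82, and lay above the table median in 2 lines. For Col12a1 a second probe set, above the median in all lines, differed by -1.11, and 2 others that were low in every line differed by 0.05 and 0.07. The 2 Col1a1 probe sets had opposite signs, 0.25 for the one used and -0.33 for the other, and those of Col3a1 differed by 0.68 and 1.18. Between Type 2 and Type 3 a second probe set of Col4a1 differed by 1.15, beside 1.29, and the others of Col14a1, low in every line, by -0.29 and 0.03, beside -1.58. Col8a2 and Col6a3 have 1 probe set each.

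Type XI and type VIII chains varied widely among lines of a group. Col11a1, the cartilage fibril chain, ran from 4.18 to 9.05 over the 23 lines and was above the table median in 13 of them. Col8a1 ran from 5.87 in Other replicate 4 to 12.03 in Other replicate 7, which spans the whole range of the 23 lines within 1 group.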
